A study of Ovis aries with 15 samples.

Results

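Promoters of sheep perirenal fat before birth were sorted by the histone marks they carried. The 3 promoter tables of the fetal stage (H3K27ac, H3K4me3 and H3K27me3) were joined by gene identifier, which gave 18460 genes, every gene that any of the tables lists. The 6 fetal libraries are part of a series of 15. Each gene was placed in 1 of 7 classes by which tables list it, and was ranked within each table by its mean over the fetuses, from the weakest promoter at percentile 0 to the strongest at 100. The fetuses, fetus 1 and fetus 2, were wild type, purebred merino animals at 132 days of gestation (term is 150 days) that received no treatment. Their ewes were fed to maintenance. Fat around the kidney was taken whole and frozen, so the chromatin of all its cell types is pooled. The same 2 animals supplied the chromatin for each mark, and each library used 10 µg of antibody on native chromatin cut with micrococcal nuclease.

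Acetylation of lysine 27 of histone H3 (H3K27ac) is placed by the acetyltransferases p300 and CBP at promoters and enhancers in use. Trimethylation of lysine 4 (H3K4me3) is placed by the SET1 and MLL complexes around the start sites of genes that are transcribed or held ready. Trimethylation of lysine 27 (H3K27me3) is the product of Polycomb repressive complex PRC2 and lies over silent genes of development. A promoter with H3K4me3 and H3K27me3 is called bivalent, a state first described at developmental regulators of embryonic stem cells. The fat around the kidney of the fetal lamb is a brown fat depot that supplies heat at birth through UCP1, the uncoupling protein of mitochondria.

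The deposited values are a scaled signal per promoter in which 1 read was worth 0.564 and 0.571 in the H3K27ac libraries of fetus 1 and fetus 2, 0.785 and 0.643 in those of H3K4me3, and 3.43 and 3.46 in those of H3K27me3. Behind the median promoter stood 402 and 332 reads for H3K27ac, 726 and 861 for H3K4me3, but 47 and 46 for H3K27me3. Every promoter of a table reached a value of at least 50.2 (H3K27ac), 50.7 (H3K4me3) or 51.5 (H3K27me3) in some library, which may be a library of the other stage. A fetus reached that floor at 99.7% of the H3K27ac, 99.4% of the H3K4me3 and 97.9% of the H3K27me3 promoters. A gene that is missing from a table is therefore not shown to lack the mark. Of 70 ribosomal protein genes looked for, 39 were not found by symbol in any of the tables. Since 21.3% of all listed genes have no symbol, these 39 are not shown to be absent. In bulk tissue, fewer cells with a mark and less of the mark per cell cannot be told apart, and a gene listed for marks of opposite meaning is not shown to carry them on 1 nucleosome, allele or cell. Markers of the labelled tissue were present: 8 of 8 adipocyte genes were listed for H3K27ac, with a median percentile of 84.7, and 8 of 8 brown fat markers, with a median of 74.8. Endothelial markers (5 of 6) and stromal markers (7 of 7) were listed for H3K27ac too, as were 4 of 6 lymphocyte, 2 of 6 macrophage, 2 of 6 adrenal, 2 of 5 smooth muscle and 2 of 3 mesothelial markers. None of the 5 skeletal muscle, 4 kidney, 3 epithelial or 3 neuronal markers was, although 9 of 21 skeletal muscle, 4 of 16 kidney, 15 of 32 epithelial and 12 of 38 neuronal genes of the longer lists described here were.

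The most frequent state was H3K27ac together with H3K4me3. This active class, not listed for H3K27me3, held 8199 genes (44.4% of all listed genes). The class listed for H3K27ac alone held 2726 genes (14.8%) and the class listed for H3K4me3 alone held 1201 (6.51%). Bivalent promoters, listed for H3K4me3 and H3K27me3 but not for H3K27ac, numbered 1612 (8.73%) and Polycomb-only promoters, listed for H3K27me3 alone, 2425 (13.1%). Genes listed for all 3 marks numbered 1910 (10.3%), and a further 387 (2.1%) had H3K27ac with H3K27me3 but no H3K4me3. Of the 6334 H3K27me3 promoters, 55.6% were also in the H3K4me3 table and 36.3% in the H3K27ac table. The 10109 promoters shared by H3K27ac and H3K4me3 were 76.5% of the first table and 78.2% of the second. When a mark was counted only where both fetuses reached 100, the three-mark class held 839 genes: 377 of its 1910 members became bivalent and 349 became active. The active class then held 7384 genes, the bivalent class 1254 and the Polycomb-only class 2139.

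**Figure D1:**
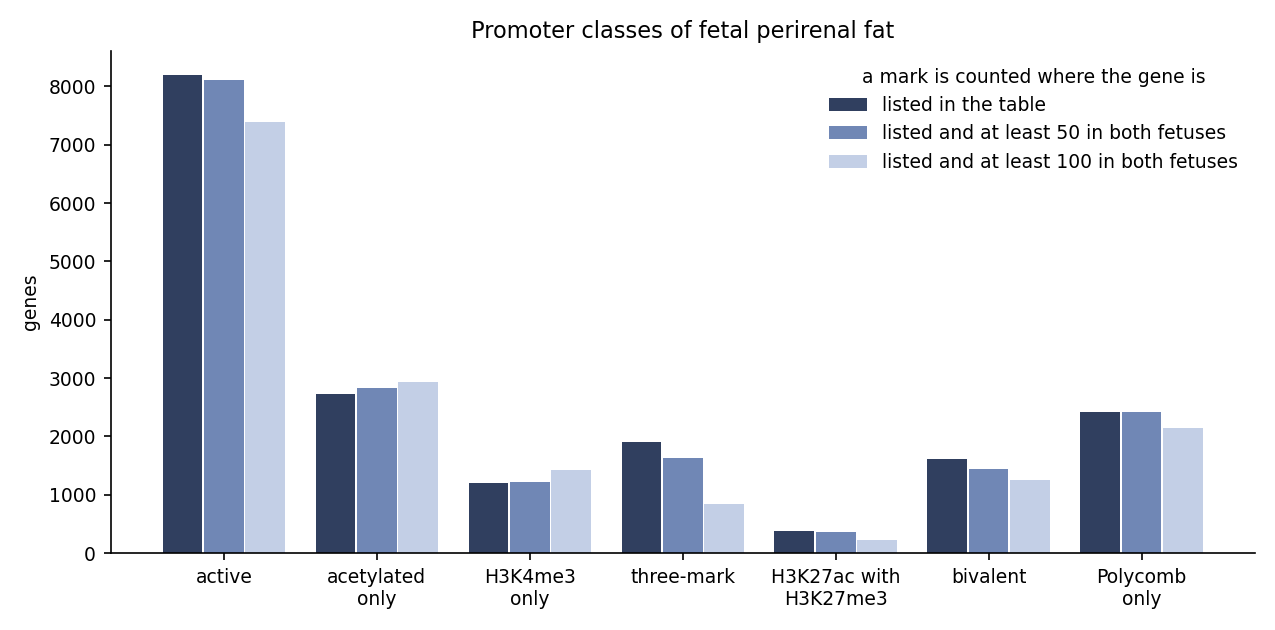
Number of genes (vertical axis) in each of the 7 promoter classes of the 2 fetuses, with a mark counted where the gene is listed (dark bars), where both fetuses reach 50 (middle) or where both reach 100 (light). The active class is the largest under each rule (8199, 8111 and 7384 genes), and the three-mark class shrinks from 1910 to 1635 and 839.

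For each mark the same class had the strongest signal in both fetuses, while the order of weaker classes could differ. H3K27ac was highest at active promoters, with medians of 284 in fetus 1 and 230.1 in fetus 2, and lower at three-mark promoters (173 and 134), acetylated-only promoters (163 and 158) and promoters with H3K27ac and H3K27me3 (135 and 126). H3K4me3 had medians of 749.7 and 955.5 at active, 582 and 448 at three-mark, 214 and 124 at bivalent promoters and 169.6 and 155 where it was listed alone. The active median was thus 3.51 times the bivalent one in fetus 1 and 7.7 times in fetus 2. H3K27me3 ran the other way: bivalent promoters had medians of 302 and 304, three-mark promoters 168 and 166, Polycomb-only promoters 137 and 138, and promoters with H3K27ac and H3K27me3 117 and 118. The bivalent median was 2.2 times the Polycomb-only median in each fetus. With 2 fetuses a mark these levels are descriptions and no test was made.

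**Figure D2:**
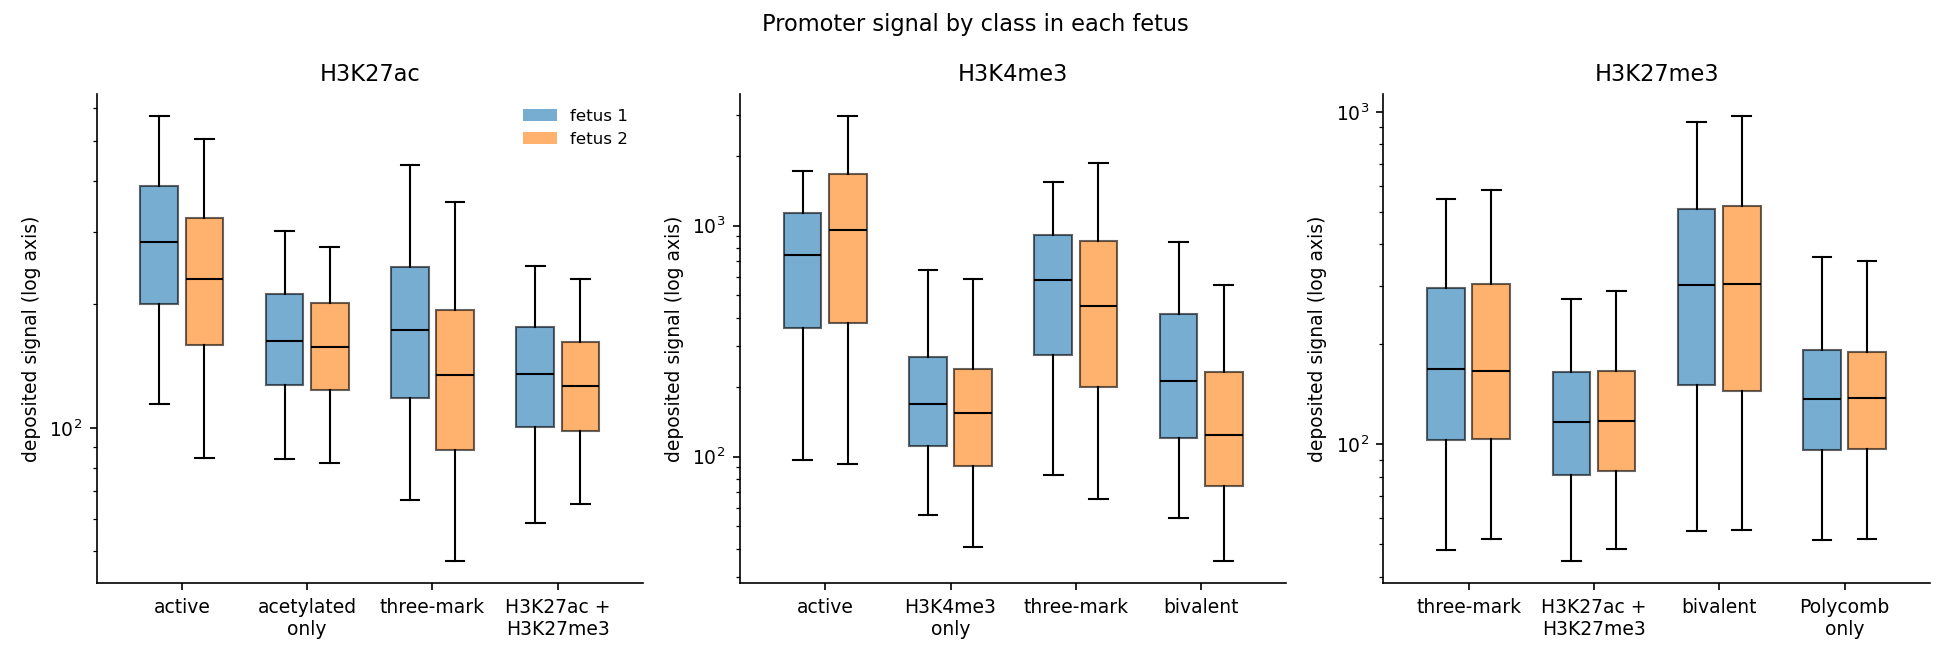
Deposited promoter signal (vertical axis, log scale) of each mark by class in fetus 1 (blue) and fetus 2 (orange). Boxes span the quartiles with the median as a line, and whiskers reach the points that leave 5% of the genes outside on each side. H3K27ac and H3K4me3 are highest in the active class and H3K27me3 in the bivalent class, in both fetuses.

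The strongest promoters of each mark came mostly from 1 class. Of the 1323 promoters in the top 10% of H3K27ac, 1235 (93.3%) were active, against 62% of that table. Active promoters likewise made up 92.9% of the top 10% of H3K4me3, against 63.4% of the table. The top 10% of H3K27me3 was 68.1% bivalent, against 25.5% of the table, and 8.68% Polycomb only, against 38.3%. Strong Polycomb marking in this fat thus mostly came with H3K4me3 rather than alone. Across the genes that 2 tables share, H3K27ac and H3K4me3 ranked alike (Spearman 0.54 in fetus 1 and 0.60 in fetus 2, 10109 genes). H3K27ac and H3K27me3 had correlations of -0.05 and -0.10 (2297 genes), and H3K4me3 and H3K27me3 0.23 and 0.08 (3522 genes). These points are genes, not replicates, and the libraries of a fetus share their chromatin. The fetuses ranked the promoters of a mark alike (Spearman 0.92 in each mark), but H3K4me3 differed more between them in level: 18.8% of its promoters differed more than 2-fold, against 0.484% for H3K27ac and 3.16% for H3K27me3. Among bivalent promoters the H3K4me3 share over 2-fold was 34.1%, with a median log2 difference (fetus 1 minus fetus 2) of 0.71, while at active promoters that median was -0.42. Bivalent H3K4me3 was thus the reading on which the fetuses differed most. The H3K4me3 libraries also differed in range over all promoters, with a log2 SD of 1.41 in fetus 1 and 1.77 in fetus 2. For H3K27ac these were 0.79 and 0.81, and for H3K27me3 1.11 and 1.12. Whether bivalent promoters differed beyond this range was not tested.

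The top of the active class mixed mitochondrial, DNA repair and transcription factor genes. The 6 with the highest mean percentile were MRPS18B (a mitochondrial ribosomal protein), ZNF608, HADHA (a subunit of the trifunctional protein of fatty acid oxidation), VDUP1 (also known as TXNIP, a thioredoxin inhibitor), TDP2 (which repairs topoisomerase damage) and KIAA0586. At HADHA, H3K27ac was 909.7 in fetus 1 and 750.3 in fetus 2, and H3K4me3 was 3079.6 and 5583. MRPS18B had 1020.3 and 797 for H3K27ac and 2781 and 5705 for H3K4me3. In both genes H3K4me3 was higher in fetus 2 and H3K27ac higher in fetus 1. Of 42 listed respiratory chain genes 37 were active (88.1%, against 44.4% of all listed genes), 3 were acetylated only and 2 were three-mark, and none was bivalent or Polycomb only. Their median percentile was 61.6 for H3K27ac and 75.8 for H3K4me3. UQCRQ, a subunit of complex III, had 642 and 602 for H3K27ac and 1400.4 and 2421 for H3K4me3 in fetus 1 and fetus 2. The proteasome had 24 of 28 listed genes in the active class (85.7%) and the cytosolic ribosome 26 of 31 (83.9%).

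The machinery of cell division and of chromatin was also mostly active. Of 30 listed genes of DNA replication and cell division 25 were active (83.3%), with a median H3K27ac percentile of 37.6 and a median H3K4me3 percentile of 61.8. TOP2A, the topoisomerase of dividing cells, had 298 and 295 for H3K27ac and 1003 and 1955 for H3K4me3. CCND1, which encodes cyclin D1, was the 1 bivalent member: its H3K4me3 was 189 and 36.6 and its H3K27me3 154 and 142, which are percentiles 11.6 and 45.1. In fetus 2 its H3K4me3 was under the floor of 50.7. With 100 required in both fetuses, 0 genes of this list were bivalent and 1 was Polycomb only. MKI67, the gene of the proliferation antigen Ki-67, was three-mark. Of 47 listed Polycomb and histone-modifying enzymes 35 were active, 7 acetylated only and 5 three-mark. The PRC2 subunit SUZ12 was active, with H3K27ac of 284 and 240.4, and the methyltransferases EZH1 and EZH2 and the subunit EED were listed for H3K27ac alone. The three-mark enzymes were CBX7 and CBX8 (readers of H3K27me3 in PRC1), PHF19 (a PRC2 partner), KDM2B and KDM5B. CBX8 had H3K27me3 of 347 and 405 (percentile 83), whereas KDM2B had 27.4 and 65.7 (percentile 3.14), close to the bottom of the table.

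Adipocyte genes were marked as active before birth, and none of them was bivalent or Polycomb only. Of 33 listed genes of adipocyte identity and fat storage, 23 were active (69.7%, against 44.4% of all listed genes), 3 were acetylated only and 7 were three-mark. Their median percentile was 67.9 for H3K27ac. FABP4, the fatty acid binding protein of adipocytes, had H3K27ac of 606 in fetus 1 and 734 in fetus 2 (percentile 99.2). PLIN1, which coats the lipid droplet, had 631 and 653 (percentile 98.9). ADIPOQ, which encodes adiponectin, had 517 and 490.5 (percentile 95.6). These promoters were among the most acetylated in both fetuses, while the lipase gene PNPLA2 had 119.6 and 65.1 (percentile 7.05) and DGAT1, an enzyme of triglyceride synthesis, 120.1 and 70.2 (percentile 7.67). The lipogenic enzymes SCD, ACACA, ACLY, FASN and GPAM were all active. FASN, the fatty acid synthase, differed between the fetuses, with H3K27ac of 280.3 and 116 and H3K4me3 of 1740.3 and 1013. FABP4 differed between them in H3K4me3, with 436 and 1588. PPARG, the master regulator of adipocytes, was not found by symbol in any of the tables, in which 21.3% of all listed genes have no symbol.

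The 7 three-mark adipocyte genes carried very different amounts of H3K27me3. At PLIN1 it was 137 in fetus 1 and 138 in fetus 2 (percentile 40.9), and at SLC2A4, the insulin-responsive glucose transporter, 103 and 93.4 (percentile 21.6). LPL, the lipase that frees fatty acids from circulating fat, had 226 and 280.1 (percentile 70.9). At LEP, which encodes the satiety hormone leptin, H3K27me3 was 511 and 481 (percentile 90), with H3K27ac of 168 and 143 (percentile 29.3). LEP was at the edge of the top 10% of H3K27me3 promoters. To ask at which shared genes a mark stood higher than another by more than the fetuses differed, each library was expressed relative to its own median over the genes shared by both tables, on a log2(value + 1) scale, and the 2 libraries of a mark were compared with the 2 of the other by limma. A difference was called at a Benjamini-Hochberg adjusted p under 0.05 over all shared genes. A positive difference means a higher standing in the first mark, not more of it. Libraries were centred but not scaled to an equal range, so standing is the distance from the median and not a rank. Between H3K27ac and H3K27me3, PLIN1 stood higher in H3K27ac (log2 difference 2.30, SE 0.18, limma adjusted p = 3.3e-11). LPL did too (log2 difference 1.08, SE 0.17, limma adjusted p = 3.24e-06), as did SLC2A4 (log2 difference 1.49, SE 0.24, limma adjusted p = 6.43e-06). LEP stood higher in H3K27me3 (log2 difference -1.58, SE 0.18, limma adjusted p = 2.03e-08). Of the 7 adipocyte genes tested, 4 stood higher in H3K27ac and 1 in H3K27me3, with a median difference of 0.77, against 0.01 for all genes tested. Of all 2297 genes shared by these tables, 62.1% passed the test, 29.6% with the higher standing in H3K27ac and 32.5% in H3K27me3.

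Brown fat genes were spread over more states than general adipocyte genes. Of 26 listed genes, 10 were three-mark (38.5%, against 10.3% of all listed genes), 7 active (26.9%), 5 bivalent, 2 acetylated only, 1 marked by H3K27ac with H3K27me3 and 1 Polycomb only. With 100 required in both fetuses 7 were three-mark, 7 active and 3 bivalent. UCP1 was three-mark. Its H3K27ac was 328 in fetus 1 and 283 in fetus 2 (percentile 75), its H3K4me3 878 and 678 (percentile 60) and its H3K27me3 439 and 380.4 (percentile 85.1). The gene of the heat-making protein was thus in the upper part of every table in both fetuses. Its standing in H3K27ac was not called different from that in H3K27me3 (log2 difference -0.34, SE 0.16, limma adjusted p = 0.0721), and without the H3K27me3 library of fetus 2 it was called lower (log2 difference -0.43, limma adjusted p = 0.0436). H3K4me3 against H3K27me3 was not called either (log2 difference 0.45, SE 0.27, limma adjusted p = 0.174). Without the H3K4me3 library of fetus 1 that difference was called (0.59, limma adjusted p = 0.013), and relative to the 1910 genes with all 3 marks alone it had the opposite sign (-0.69, limma adjusted p = 0.0454).

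Other genes of thermogenesis were spread over the active, acetylated-only and three-mark classes. Active were 7 of the 26 listed brown fat genes (26.9%, against 44.4% of all listed genes). PPARGC1A, the coactivator of mitochondrial and thermogenic genes, had H3K27ac of 535 in fetus 1 and 509.9 in fetus 2 (percentile 96.2) and no H3K27me3 entry. DIO2, which activates thyroid hormone in brown fat, had 327 and 306 (percentile 77), and COX7A1, a respiratory chain subunit of brown fat and muscle, 424 and 282 (percentile 82.8). EBF2, a transcription factor of the brown lineage, was strong in H3K27ac (293 and 313) and weak in H3K4me3 (174 and 197), and it stood higher in H3K27ac (log2 difference 2.41, SE 0.32, limma adjusted p = 0.000328). Its percentile was 74.6 in the first of these tables and 24.5 in the second. PPARGC1B, a relative of PPARGC1A, was listed for H3K27ac alone. Among the three-mark genes, the adrenergic receptor ADRB3 had H3K27me3 of 202 and 221 and H3K4me3 of 1203 and 1054, and stood higher in H3K4me3 (log2 difference 1.94, SE 0.29, limma adjusted p = 0.000791). Between H3K27ac and H3K27me3 it was not called (log2 difference 0.43, SE 0.19, limma adjusted p = 0.0541), but it was called, with the higher standing in H3K27ac, under 5 of the alternatives: without the H3K27me3 library of fetus 2 (limma adjusted p = 0.0349), with percentile ranks (0.00345), with centring on the mean (0.0219), over genes of all 3 tables (0.0244) and with at least 50 in every library (0.0359). PDK4, a brake on glucose oxidation, had low H3K27me3 (82.3 and 135) and stood higher in H3K27ac (log2 difference 2.11, SE 0.23, limma adjusted p = 8.87e-09) and in H3K4me3 (log2 difference 3.39, SE 0.42, limma adjusted p = 0.000423).

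Of 17 brown fat genes listed for H3K27me3, 2 were in the top 10% of that table, LHX8 and ZIC1. The median percentile of the 17 was 63.2. LHX8, a homeobox gene used as a brown fat marker, was three-mark with H3K27me3 of 961 in fetus 1 and 899 in fetus 2 (percentile 98.5) beside H3K27ac of 250.4 and 305, and it stood higher in H3K27me3 (log2 difference -1.66, SE 0.16, limma adjusted p = 1.64e-09), a call that was lost with percentile ranks (limma adjusted p = 0.0615). ZIC1, a zinc finger gene of classical brown fat, was bivalent, with H3K27me3 of 738 and 768 (percentile 96.7) and H3K4me3 of 586 and 327. Its standing was higher in H3K27me3 (log2 difference -1.24, SE 0.26, limma adjusted p = 0.00389), a call that was lost without the H3K27me3 library of fetus 1 (limma adjusted p = 0.0718) or fetus 2 (0.0882). The morphogen gene BMP7, an inducer of brown fat, was bivalent with H3K27me3 of 415 and 408 and H3K4me3 of 318 and 122 and stood higher in H3K27me3 (log2 difference -1.52, SE 0.34, limma adjusted p = 0.00572). FGF21, which encodes a hormone of liver and fat, was also bivalent, as were S100B and IRF4. PRDM16, a coregulator that sets brown fat identity, was the 1 Polycomb-only member, with weak H3K27me3 of 78.9 and 83 (percentile 14.6). Of 15 brown fat genes tested for H3K4me3 against H3K27me3, 4 stood higher in H3K4me3 and 5 in H3K27me3, and without the H3K27me3 library of fetus 1 or fetus 2 these were 3 and 2 or 3 and 1. Of all 3522 shared genes 59.5% passed the test, 26.5% higher in H3K4me3 and 32.9% in H3K27me3. The 4 and 5 of 15 brown fat genes were close to these shares.

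**Figure D3:**
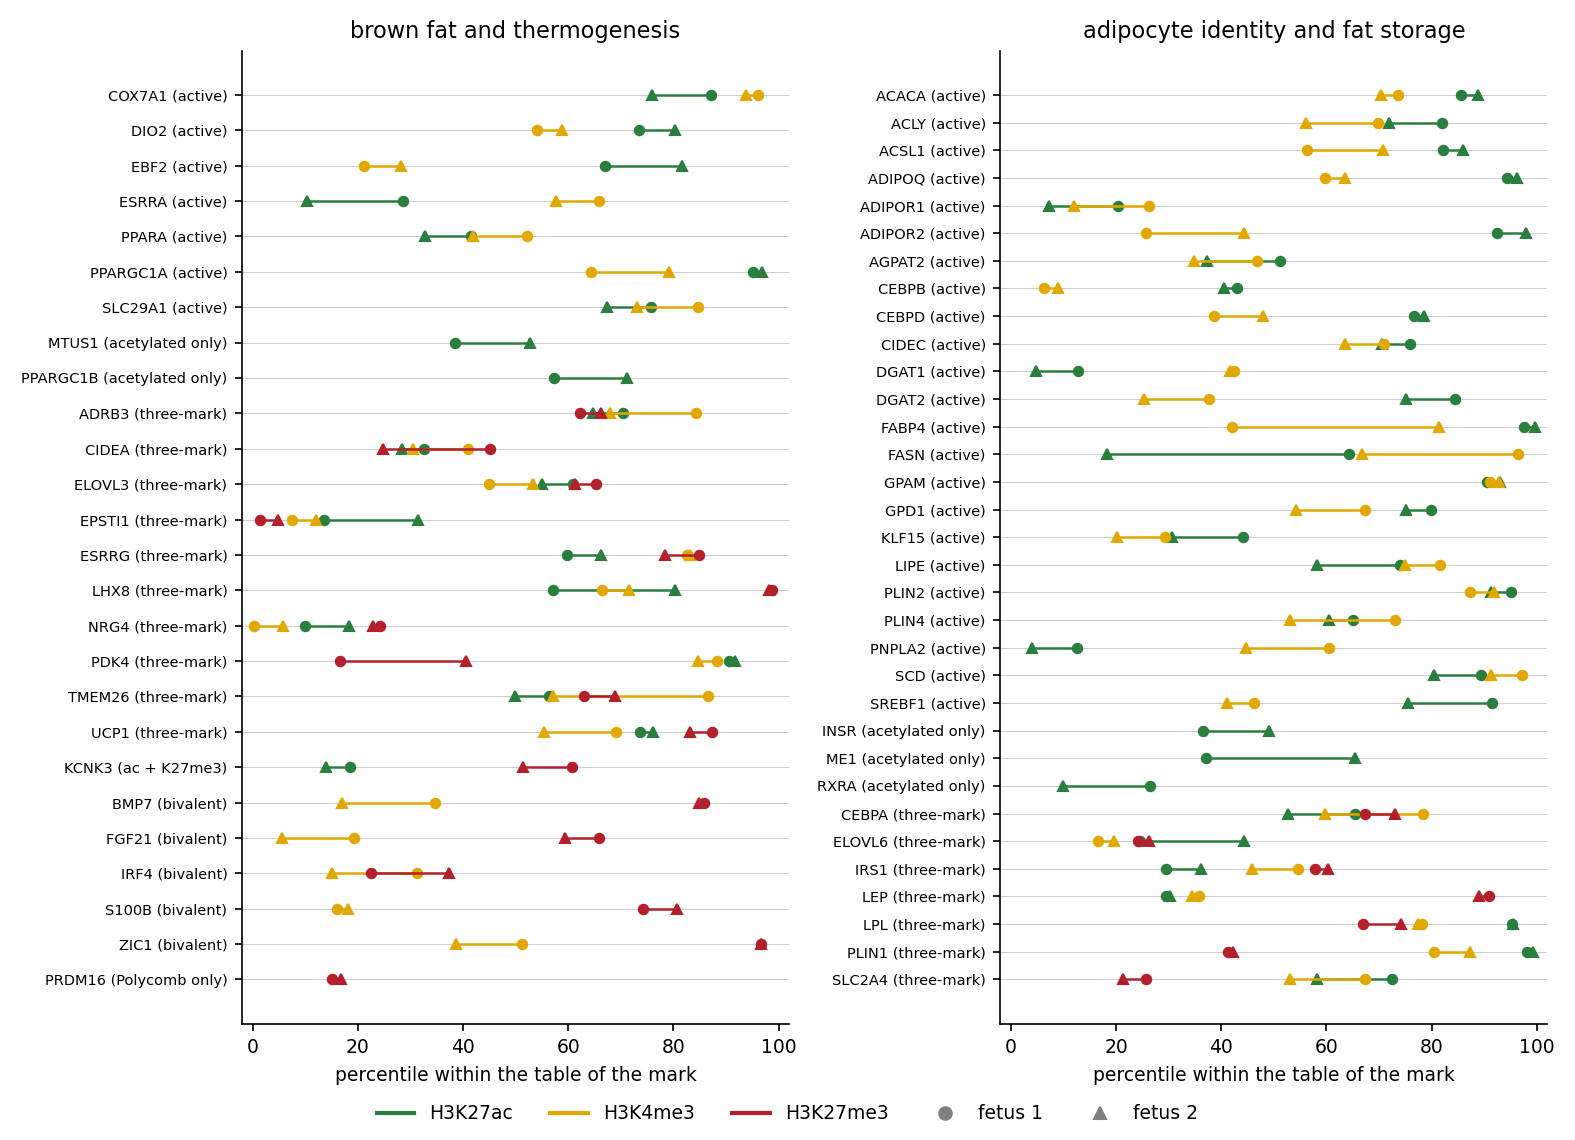
Percentile of each listed gene within the table of a mark (horizontal axis, 0 weakest to 100 strongest) for the brown fat list (left, 26 genes) and the adipocyte list (right, 33 genes), ordered by promoter class. Circles are fetus 1 and triangles fetus 2, joined by a line. H3K27me3 (red) appears at 17 of the brown fat genes and at 7 of the adipocyte genes.

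Acetylated-only promoters were weaker than active ones, and the best ranked reached percentile 92.3. The 6 with the highest percentile were CTDSPL, RCBTB2, PLSCR4, PPP2R3A, CYP17A1 and SLX4IP. CYP17A1, a steroid hydroxylase of adrenal and gonad, had H3K27ac of 440.5 in fetus 1 and 375 in fetus 2 (percentile 89.1), and STAR, which imports cholesterol for steroid synthesis, 257 and 199.8 (percentile 56.6). The adrenal cortex lies close to this fat. Of 16 listed adrenal genes 2 were acetylated only (12.5%, against 14.8% of all listed genes) and 6 Polycomb only (37.5%, against 13.1%). The steroid enzyme genes CYP11A1 and HSD3B1 (3BHSD in the tables) and the chromaffin genes TH, DBH and PNMT were Polycomb only. Of the 6 adrenal markers checked 2 were in the H3K27ac table, and the part of adrenal tissue in these values was not tested. The insulin receptor gene INSR (187 and 187) and the progenitor gene PDGFRA (159 and 146), a receptor of platelet-derived growth factor, were acetylated only as well.

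The class listed for H3K4me3 alone held a few very strong promoters above a low median. Its highest promoter was SUPT4H1, a transcription elongation factor gene, with 149278 in fetus 1 and 38807 in fetus 2, which was 1.71% of all promoter signal in that library of fetus 1 and 0.344% in that of fetus 2. Next came FGD5, with 8416 and 2151, and MGEA5, which encodes O-GlcNAcase, with 5128 and 2894. OTX1, SMAP2 and AFG3L2 completed the top 6, and each of the 6 was higher in fetus 1. Genes without a symbol made up 40.2% of this class and 38.7% of the Polycomb-only class, against 13.2% of the active class and 21.3% of all listed genes. The 387 genes with H3K27ac and H3K27me3 but no H3K4me3 were led by SEC61G, a subunit of the protein translocation channel, and YBX2, a germ cell RNA-binding protein. SEC61G had H3K27ac of 219 and 490.5 and H3K27me3 of 182 and 467, both more than 2-fold higher in fetus 2. YBX2 had 288 and 250.1 for H3K27ac and 628 and 588 for H3K27me3, and KANK4, LRRC2, BACH2 and NGFR followed.

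Transcription factors of the body plan were mostly bivalent. Of 114 listed developmental transcription factors 68 were bivalent (59.6%, against 8.73% of all listed genes), 39 three-mark (34.2%), 4 Polycomb only, 2 listed for H3K4me3 alone and 1 active. Their median H3K27me3 percentile was 94, and 70 of them were in the top 10% of the table. PAX9, a regulator of tooth and pharyngeal pouch, had H3K27me3 of 1242 in fetus 1 and 1089 in fetus 2 and H3K4me3 of 1668 and 696. ISL2, a motor neuron factor, had H3K27me3 of 961 and 1127 and H3K4me3 of 1382 and 1479.5. TBX20, a heart regulator, had 985 and 1086 for H3K27me3 and 1389 and 667 for H3K4me3. The H3K27me3 values of these genes differed little between the fetuses, while PAX9 and TBX20 had more than 2-fold the H3K4me3 in fetus 1. These 3, VGLL2 (a cofactor of muscle and face development), CYP26A1 (which degrades retinoic acid) and KCNJ3 (a potassium channel) were the 6 bivalent genes of highest percentile. GATA4, a factor of heart and gut, had H3K27me3 of 889 and 1003 and H3K4me3 of 311 and 213 and stood higher in H3K27me3 (log2 difference -2.33, SE 0.27, limma adjusted p = 0.000357). Of 107 developmental factors tested for H3K4me3 against H3K27me3, 11 stood higher in H3K4me3 and 55 in H3K27me3, against 26.5% and 32.9% of all genes tested, with a median difference of -0.72, against -0.27. Without the H3K27me3 library of fetus 1 these counts were 5 and 32, and without that of fetus 2 4 and 32. Without the H3K4me3 library of fetus 1 or fetus 2 they were 17 and 65 or 20 and 62.

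A minority of developmental factors kept strong H3K27ac. TBX3, a T-box factor of limb and breast, was the active member, with H3K27ac of 439 in fetus 1 and 309 in fetus 2 and H3K4me3 of 1694 and 2110.3. MEIS1, a partner of HOX proteins, was three-mark with H3K27ac of 514 and 471 (percentile 95.1) and H3K27me3 of 161 and 218 (percentile 59.2), and it stood higher in H3K27ac (log2 difference 1.47, SE 0.18, limma adjusted p = 1.18e-07). GATA6, a factor of mesoderm and endoderm, had 356 and 206 for H3K27ac and 92.6 and 118 for H3K27me3 (log2 difference 1.45, SE 0.24, limma adjusted p = 1.18e-05). TBX18, a factor of the mesoderm that lines the body cavity and the ureter, had the highest mean percentile of all three-mark genes, with H3K27ac of 455 and 392, H3K4me3 of 2032 and 2292 and H3K27me3 of 432 and 418. MEIS1 and GATA6 were the 2 developmental factors that stood higher in H3K27ac. The other three-mark factors had little acetylation: 23 of the 39 were under percentile 10 in H3K27ac, and 33 of the 39 stood higher in H3K27me3, against 32.5% of all genes tested. OSR2, a kidney and limb factor, had H3K27ac of 44 and 18.3 and H3K27me3 of 724 and 719 (log2 difference -4.53, SE 0.28, limma adjusted p = 7.21e-13), so neither fetus reached the floor of the H3K27ac table. LHX2 (25.9 and 20.6), LHX4 (35.5 and 38.3) and LHX9 (49.6 and 25.7), of the LIM homeobox family, were under the floor in both fetuses as well. Counting a mark only where both fetuses reached 100 left 14 developmental factors in the three-mark class and put 80 in the bivalent class and 15 in the Polycomb-only class.

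HOX genes, which set position along the body axis, divided by their place in the clusters. Of 39 genes looked for 33 were listed. All 26 listed genes of paralogue groups 1 to 10 were in the H3K27ac table, and none of the 7 listed genes of groups 11 to 13 was. Those 7 genes (HOXA13, HOXB13, HOXC11, HOXC12, HOXC13, HOXD12 and HOXD13) were all bivalent. Their H3K27me3 had a median of 988 in fetus 1 and 975 in fetus 2, and their lowest values (652 and 750.4) were above the highest of groups 1 to 10 (624 and 591). The highest was HOXD13, with 1619 and 1632, beside H3K4me3 of 660.2 and 362. Groups 1 to 9 had median H3K27me3 of 219.6 and 171 at the 16 of 23 genes listed for it, and the 3 genes of group 10 (HOXA10, HOXC10 and HOXD10) had 384 and 391. Median H3K27ac was 365 and 295 in groups 1 to 9 and 204 and 122 in group 10. The split at group 10 was made after the values were seen.

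Within the clusters the balance of marks varied from gene to gene. HOXD8 had H3K27ac of 517 in fetus 1 and 433 in fetus 2 and H3K27me3 of 54.9 and 89.9, and stood higher in H3K27ac (log2 difference 2.82, SE 0.24, limma adjusted p = 1.78e-10). HOXB2 did as well (log2 difference 2.12, SE 0.19, limma adjusted p = 4.53e-10), with H3K27ac of 520.0 and 449. HOXB9, towards the other end of its cluster, had H3K27ac of 186 and 111 and H3K27me3 of 528 and 519 and stood higher in H3K27me3 (log2 difference -1.77, SE 0.19, limma adjusted p = 8.04e-09). So did HOXD10 (log2 difference -1.96, SE 0.17, limma adjusted p = 3.6e-10), with 176 and 122 for H3K27ac and 624 and 591 for H3K27me3. Of 19 HOX genes tested in this pair of marks 11 stood higher in H3K27ac and 4 in H3K27me3, against 29.6% and 32.5% of all genes tested. HOXA3, HOXA4, HOXA6 and HOXB4 were among the active genes, with no H3K27me3 entry, and HOXB1 and HOXB3 were listed for H3K27ac alone. HOXA6 had the highest H3K27ac of the family in fetus 1 (696) and HOXC6 in fetus 2 (569). For H3K4me3 against H3K27me3, the bivalent genes HOXD13 (log2 difference -2.19, SE 0.24, limma adjusted p = 0.000329), HOXB13 (log2 difference -2.88, SE 0.27, limma adjusted p = 0.000295) and HOXC12 (log2 difference -2.59, SE 0.29, limma adjusted p = 0.000342) stood higher in H3K27me3.

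**Figure D4:**
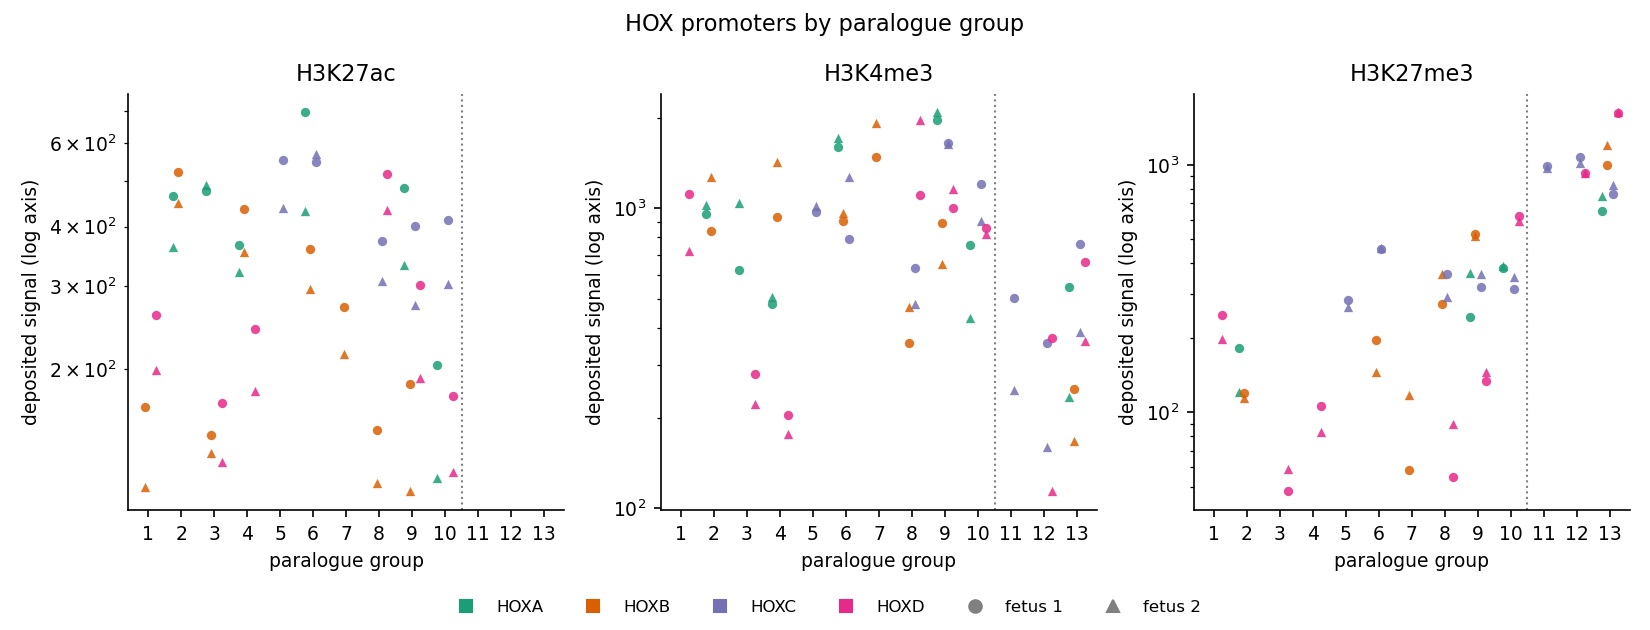
Deposited signal (vertical axes, log scale) of H3K27ac, H3K4me3 and H3K27me3 at HOX promoters by paralogue group (horizontal axis), coloured by cluster, with fetus 1 as circles and fetus 2 as triangles, 1 gene not shown. No gene right of the dotted line (groups 11 to 13) is in the H3K27ac table, and all 7 listed there exceed every gene of groups 1 to 10 in H3K27me3.

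Signalling ligands were most often bivalent. Of 45 listed WNT, FGF, BMP and hedgehog genes and their inhibitors 18 were bivalent (40%, against 8.73% of all listed genes), 12 three-mark (26.7%, against 10.3%), 7 Polycomb only (15.6%, against 13.1%) and 3 active (6.67%, against 44.4%). With 100 required in both fetuses, 14 were bivalent, 6 three-mark and 13 Polycomb only. SHH, the sonic hedgehog ligand, was bivalent with H3K27me3 of 696 in fetus 1 and 740.0 in fetus 2 and H3K4me3 of 158 and 64.9, and stood higher in H3K27me3 (log2 difference -3.27, SE 0.33, limma adjusted p = 0.000299). WNT10A had H3K27me3 of 648 and 692 and H3K4me3 of 137 and 42.4 (log2 difference -3.58, SE 0.40, limma adjusted p = 0.000342), and FGF4 247 and 290.5 for H3K27me3 and 41.6 and 12.9 for H3K4me3 (log2 difference -3.93, SE 0.47, limma adjusted p = 0.000383). These 3 ligands had H3K4me3 in the lower part of its table, and FGF4 was under its floor of 50.7 in both fetuses. FGF10 (FGF-10 in the tables), a growth factor made by mesenchyme and preadipocytes, differed from them: its H3K27ac was 561 and 539 (percentile 97.1), its H3K4me3 2518 and 2668 (percentile 98.2) and its H3K27me3 261 and 263, and it stood higher in H3K27ac (log2 difference 1.15, SE 0.16, limma adjusted p = 6.02e-07). BMP4, a ligand of mesoderm and of adipocyte commitment, was three-mark with H3K27ac of 339 and 231 (percentile 70.9). WNT11, FGF7 and FGF16 were active. FGF7, a growth factor that stromal cells make for epithelia, had H3K27ac of 371 and 429 (percentile 88.3).

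Neuronal, epithelial, kidney and skeletal muscle genes were mostly in the bivalent or Polycomb-only class. Of 38 listed neuronal channel, receptor and synapse genes 18 were bivalent (47.4%, against 8.73% of all listed genes), 7 Polycomb only (18.4%, against 13.1%) and 1 active, and of 32 listed epithelial genes 12 were bivalent (37.5%), 5 Polycomb only (15.6%) and 3 active. With 100 required in both fetuses, 10 neuronal genes were bivalent and 16 Polycomb only, and 9 epithelial genes were in each of these classes. EPCAM, an epithelial adhesion molecule, had H3K27me3 of 494 in fetus 1 and 539 in fetus 2 and H3K4me3 of 129 and 156 and stood higher in H3K27me3 (log2 difference -2.32, SE 0.38, limma adjusted p = 0.00122). GAD2, an enzyme of GABA synthesis, had H3K27me3 of 731 and 809 (percentile 96.9). Kidney genes, of the organ beside this fat, had 7 of 16 in the Polycomb-only class (43.8%), 5 bivalent and none active. The podocyte gene NPHS1 was Polycomb only with 525 and 539 (percentile 91.3). In skeletal muscle the order was similar, with 7 Polycomb-only, 5 bivalent and 4 active genes of 21. MYOD1, which commits cells to muscle, was bivalent with H3K27me3 of 769 and 761 and H3K4me3 of 346 and 95.8 (log2 difference -2.52, SE 0.40, limma adjusted p = 0.00114). Of the 4 active muscle genes MEF2C, which other mesoderm cells also use, had H3K27ac of 586 and 665 (percentile 98.7) and MYL1, a myosin light chain, 180.5 and 365. Polycomb-only promoters were led by TTBK1, a kinase of neurons, with H3K27me3 of 1033 and 1058, PAX1, IGFBP1, KLK5, SCUBE1 and SLC6A11. PAX1, a factor of the vertebral column, had 803 and 764, and IGFBP1, a growth factor binding protein of liver, 765 and 775.

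Genes of stromal cells, vessels and their muscle, which are part of the depot, were often three-mark. Of 29 listed stromal and preadipocyte genes 14 were three-mark (48.3%) and 10 active (34.5%), and of 19 endothelial genes 9 were three-mark and 9 active (47.4% each). Smooth muscle and pericyte genes were three-mark at 8 of 14 (57.1%), against 10.3% of all listed genes. Fewer were three-mark with a higher threshold: with 100 required in both fetuses 3 smooth muscle and pericyte, 4 endothelial and 10 stromal genes were three-mark. COL3A1, a fibrillar collagen, was active with H3K27ac of 708 in fetus 1 and 798 in fetus 2 (percentile 99.6), and POSTN, a matrix protein, with 607 and 572. COL1A1, another fibrillar collagen, was three-mark with H3K27ac of 222 and 139.9 and H3K27me3 of 542 and 405 and stood higher in H3K27me3 (log2 difference -1.32, SE 0.19, limma adjusted p = 1.17e-06). FN1, which encodes fibronectin, did too (log2 difference -1.44, SE 0.17, limma adjusted p = 4.9e-08), with H3K27me3 of 546 and 560.2. DLK1, the imprinted preadipocyte factor, had the lowest H3K27ac of the list, with 53 and 26.3 beside H3K27me3 of 312 and 290.5 (log2 difference -2.89, SE 0.32, limma adjusted p = 1.47e-08). CD34, a surface protein of progenitors and endothelium, went the other way, with H3K27ac of 549 and 419 and H3K27me3 of 172 and 152 (log2 difference 1.65, SE 0.18, limma adjusted p = 1.11e-08). Of 14 stromal genes tested 2 stood higher in H3K27ac and 10 in H3K27me3, and of 9 endothelial genes 2 and 5, against 29.6% and 32.5% of all genes tested. For H3K4me3 against H3K27me3 the same lists had 5 higher in H3K4me3 and 2 in H3K27me3 of 14 stromal genes, and 5 and 0 of 9 endothelial genes, against 26.5% and 32.9% of all genes tested. Without the H3K27me3 library of fetus 1 or fetus 2 these were 3 and 1 of the stromal genes, and 4 and 0 or 3 and 0 of the endothelial genes, and without the H3K4me3 library of fetus 1 they were 9 and 3, and 6 and 1. Without the H3K4me3 library of fetus 2 they were 5 and 4, and 5 and 1. The counts of both lists turned with the genes used as reference. Relative to the genes listed for all 3 marks alone, 1 stromal gene stood higher in H3K4me3 and 7 in H3K27me3. Among the endothelial genes 3 stood higher in H3K4me3 and 3 in H3K27me3. The elastic fibre gene FBN1 stood higher in H3K4me3 than in H3K27me3 (log2 difference 3.73, SE 0.31, limma adjusted p = 0.000274), with 1926 and 1771 for H3K4me3 and 117 and 86.5 for H3K27me3. In the endothelial list TEK, the angiopoietin receptor, was active with H3K27ac of 581 and 544, and PROX1, which sets lymphatic identity, was three-mark with H3K27me3 of 834 and 1058 (percentile 98.6) and stood higher in it (log2 difference -2.56, SE 0.16, limma adjusted p = 1.07e-12).

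Immune cell genes were spread over most classes. Of 18 listed lymphocyte genes 2 were active (11.1%, against 44.4% of all listed genes). The median H3K27ac percentile of the lymphocyte genes was 22.5. Of 18 macrophage and myeloid genes 6 were active (33.3%, against 44.4%). MRC1, the mannose receptor of tissue macrophages, had H3K27ac of 312 in fetus 1 and 337 in fetus 2 and H3K4me3 of 149 and 165 and stood higher in H3K27ac (log2 difference 2.75, SE 0.33, limma adjusted p = 0.000207). The complement gene C1QA was bivalent with H3K27me3 of 535 and 501 and H3K4me3 of 131 and 103 (log2 difference -2.61, SE 0.31, limma adjusted p = 0.000381).

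Among the genes shared by 2 tables, those of the most extreme balance differed in kind between the ends. RNF217 and PTPN12, a ubiquitin ligase and a phosphatase, stood highest in H3K27ac relative to H3K27me3. RNF217 had H3K27ac of 336 in fetus 1 and 250.1 in fetus 2 and H3K27me3 of 24 and 20.7 (log2 difference 3.73, SE 0.36, limma adjusted p = 1.57e-09), and PTPN12 430.3 and 407 for H3K27ac and 20.6 and 55.3 for H3K27me3 (log2 difference 3.67, SE 0.35, limma adjusted p = 9.22e-10). The H3K27me3 of RNF217 was under the floor of its table in both fetuses, as was that of BRD2 (44.6 and 38). RBMS1, SLC25A3 (the mitochondrial phosphate carrier), SIAE, BRD2 (a reader of acetylated histones), FERMT2 and ZADH2 followed. The 8 genes at the other end were OSR2, LHX2, LHX4, NR5A1, LHX9, TCF24, SLC10A4 and PRDM6, most of which encode transcription factors. OSR2, LHX2, LHX4 and LHX9 were under the floor of the H3K27ac table in both fetuses. NR5A1, the regulator of steroid-making cells, had H3K27ac of 35.5 and 25.7 and H3K27me3 of 459.8 and 543 (log2 difference -3.92, SE 0.28, limma adjusted p = 6.79e-12), and neither fetus reached the floor of the H3K27ac table. At the H3K4me3 end against H3K27me3 stood BRD2, PTPN12, RNF217, CDKN2C (a cyclin-dependent kinase inhibitor), FERMT2, TNIK, SPTBN1 and COL4A2, a basement membrane collagen. CDKN2C had H3K4me3 of 1754 and 3268 and H3K27me3 of 41.2 and 62.2 (log2 difference 5.07, SE 0.50, limma adjusted p = 0.000299). At the opposite end stood LHX5, CELF5, FGF4, PKP1, SHISA7, CLDN9, NEUROD2 and WNT10A. These were all bivalent, whereas the genes named at the H3K4me3 end were all three-mark. CELF5 (43.2 and 46.9) and FGF4 were under the floor of the H3K4me3 table in both fetuses. NEUROD2, a neuronal factor, had 156 and 88.7 for H3K4me3 and 1067 and 1113 for H3K27me3 (log2 difference -3.66, SE 0.28, limma adjusted p = 0.000274).

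Most bivalent genes called between H3K4me3 and H3K27me3 stood higher in H3K27me3, while the balance among three-mark genes turned with the genes used as reference. Of the 1612 bivalent genes 49 stood higher in H3K4me3 and 931 in H3K27me3, with a median difference of -1.16. Of the 1910 three-mark genes 885 stood higher in H3K4me3 and 229 in H3K27me3, with a median of 0.75. The zero of this comparison is the median gene of both groups together: relative to the three-mark genes alone every difference moved by about -1.15, 451 of those genes stood higher in H3K4me3 and 705 in H3K27me3, and 115 of the 1114 calls of the joint comparison had the opposite sign. In all, 934 of 3522 genes stood higher in H3K4me3 and 1160 in H3K27me3. Without the H3K27me3 library of fetus 1 the calls numbered 1344 and without that of fetus 2 1320, in place of 2094: among bivalent genes 29 and 586 or 26 and 575, and among three-mark genes 635 and 94 or 636 and 83. Without the H3K4me3 library of fetus 1 or fetus 2, 77 or 79 bivalent genes stood higher in H3K4me3, and without that of fetus 2 368 three-mark genes stood higher in H3K27me3. Between H3K27ac and H3K27me3, 681 of 2297 genes stood higher in H3K27ac and 746 in H3K27me3, and leaving out any of the 4 libraries gave between 1216 and 1375 calls in place of 1427.

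Of 10109 genes with both active marks, 40.2% differed in standing between them. Of these 2443 (24.2% of the genes tested) stood higher in H3K27ac and 1616 (16%) in H3K4me3. The libraries were not scaled to an equal range. Over all promoters the log2 SD in fetus 1 and fetus 2 was 0.79 and 0.81 for H3K27ac and 1.41 and 1.77 for H3K4me3. A gene of equal rank in both marks can therefore differ in standing. The H3K27ac end was led by ZBTB20, a zinc finger repressor, with H3K27ac of 517 in fetus 1 and 431 in fetus 2 and H3K4me3 of 94.2 and 113 (log2 difference 3.89, SE 0.32, limma adjusted p = 8.24e-05). CMSS1, RASSF6, ZNF366, MERTK (which lets macrophages clear dying cells), TECTB, GSKIP and ROCK2 followed. The H3K4me3 end was led by SLCO5A1, an organic anion transporter gene, with 67.7 and 44.5 for H3K27ac and 2079 and 990.2 for H3K4me3 (log2 difference -2.98, SE 0.39, limma adjusted p = 0.000318), and also held TCF24, SLC35D3, NEUROG2 (a neuronal factor), KCNMB4, FGF9 and VAX2. All 8 genes at this end were three-mark genes, whereas none of the 8 at the H3K27ac end was in the H3K27me3 table. Of 30 adipocyte genes 9 stood higher in H3K27ac, which is close to the 24.2% of all genes tested. In H3K4me3 1 stood higher, against 16% of all genes tested. CEBPB, an early regulator of fat cell formation, had 205 and 167 for H3K27ac and 84 and 80.4 for H3K4me3 (log2 difference 2.87, SE 0.45, limma adjusted p = 0.000756), ADIPOR2, an adiponectin receptor, 487 and 546 for H3K27ac and 209.6 and 428 for H3K4me3 (log2 difference 2.49, SE 0.31, limma adjusted p = 0.000234), and DGAT2, another enzyme of triglyceride synthesis, 396 and 278 for H3K27ac and 363 and 173 for H3K4me3 (log2 difference 2.11, SE 0.39, limma adjusted p = 0.00181). Without the H3K27ac library of fetus 1 or fetus 2 these counts were 4 and 1 or 4 and 0, and without the H3K4me3 library of fetus 1 or fetus 2 16 and 5 or 12 and 5. Of 40 developmental factors 23 stood higher in H3K4me3 and 0 in H3K27ac, against 16% and 24.2% of all genes tested. Without the H3K27ac library of fetus 1 or fetus 2 the first count was 14 or 11, and without the H3K4me3 library of fetus 2 it was 35. These counts depended on the centring and on single libraries: centring on the mean gave 2061 and 3098 and percentile ranks 1882 and 2334, and the calls numbered 1671 and 1173 without the H3K27ac library of fetus 1 or fetus 2, and 6827 and 5970 without the H3K4me3 library of fetus 1 or fetus 2.

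**Figure D5:**
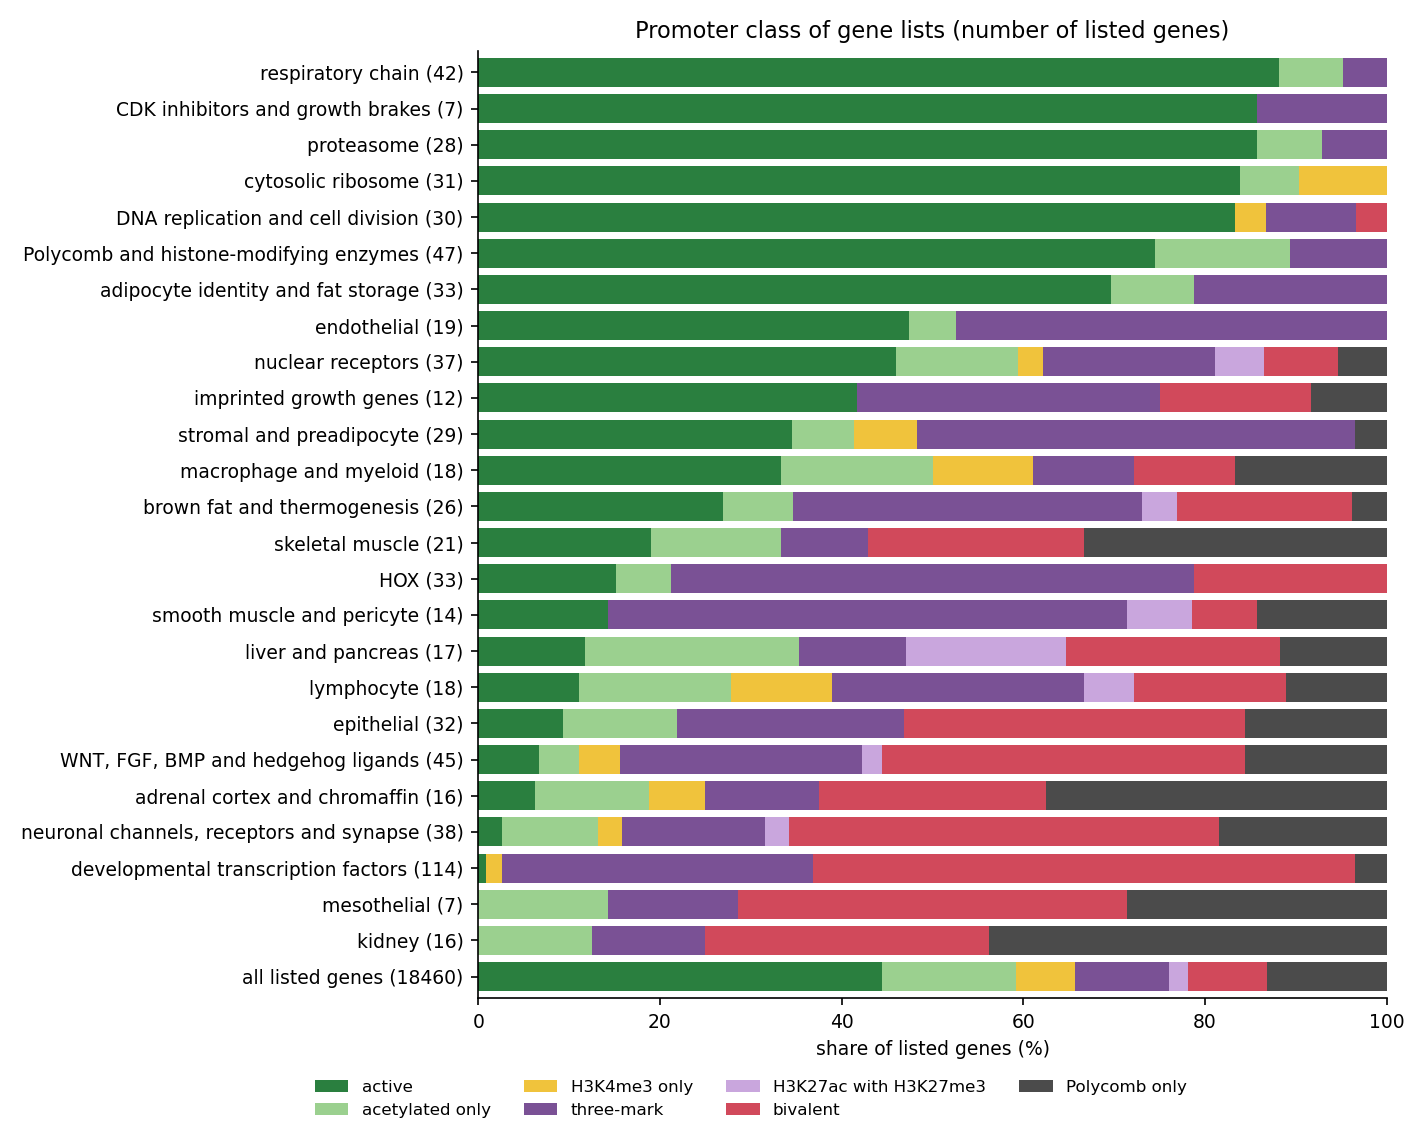
Share of listed genes (horizontal axis, %) in each promoter class for 25 gene lists and for all 18460 listed genes, with the number of listed genes in brackets. The active share falls from 88.1% in the respiratory chain to 0.877% in developmental transcription factors and 0% in the kidney and mesothelial lists, against 44.4% of all listed genes.

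Neighbours of genes with H3K27me3 were listed for it more often than neighbours of active genes. The order of genes was taken from RefSeq's ARS-UI_Ramb_v3.0 assembly for 11301 of 14519 listed genes with a symbol of their own, which gave 7008 pairs of adjacent protein-coding genes with both members listed. The neighbour of a Polycomb-only gene was in the H3K27me3 table in 48.9% of cases, that of a bivalent gene in 44.6%, that of a three-mark gene in 39.9% and that of an active gene in 23.2%, against 29.6% over all members of these pairs. Leaving out pairs whose symbols share a stem, such as 2 HOX genes, gave 44.8%, 41.6%, 37.4% and 23.2%, against 28.5%. Genes listed for H3K4me3 alone had a neighbour of the same class in 18.7% of cases, against 3.28% over all members. Strand and the width of the promoter windows were not used, so neighbours that share a window could not be left out, and their part in these shares was not tested.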

How the data were processed

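Histone mark ChIP-seq of perirenal fat from 2 fetuses was used for 3 marks, 6 libraries in all. The deposited values are a scaled signal per promoter and library, per the file headers. The submitters' processing notes name CLC Genomics Workbench 7.0, the sheep build Oar_v3.1, bedtools 2.19.0, MACS and edgeR, without saying what each did to these values. How wide a promoter window is, and how the values were scaled, is not stated in the labels or file headers. Since the values are not counts, no count model was run. The size of 1 read was read from the steps between low values and served only to describe depth.

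The 3 tables were joined by gene identifier with Python 3.11.15 and pandas 2.3.3, and 1 row without an identifier was left out. A gene's class followed from the tables that list it. Shared genes were compared between marks on log2(value + 1), centred on the library's median over the shared genes, with limma 3.58.1 (trend, R 4.3.3) and Benjamini-Hochberg adjustment at 0.05 over all shared genes. These steps were tested on simulated data with 1 spread per gene for both marks and no deviation shared within an animal. A log2 difference of 1 was called in 44 of 70 genes for H3K27ac against H3K27me3. It was called in 4 of 70 for H3K4me3 against H3K27me3 and 3 of 70 for H3K27ac against H3K4me3. For a log2 difference of 2 these were 70, 53 and 39 of 70. A gene that was not called is therefore not shown to stand equally in both marks. An exact permutation test of 2 against 2 libraries cannot go below p = 0.333. The p-values rest on the spread between the libraries of 2 animals, with 1 library per mark and animal, so animal and library variation were not separated. That spread was pooled over both marks and moderated by limma with the trend over all shared genes. A small p-value therefore does not rest on the spread of that gene alone. Libraries of an animal deviated together, with correlations of 0.564 (H3K27ac and H3K4me3), 0.100 (H3K27ac and H3K27me3) and 0.116 (H3K4me3 and H3K27me3). The pairing comes from the animal codes in the labels, and the fit without the animal as a block is given.

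The members and the 25 gene lists were chosen with earlier results of these data known. Of 934 symbols looked for, 709 matched by symbol, 5 by a synonym and 1 by another symbol, through RefSeq's ARS-UI_Ramb_v3.0 gene table, used for names and neighbours only, and 219 were not found. Genes listed without a symbol, or under a symbol that occurs more than once, could not be matched. Named were the 6 genes of each class with the highest mean percentile, the 8 genes with the largest difference in each direction of each comparison whose fetuses both lay beyond the other mark, and up to 8 members of a list. In the adipocyte, brown fat, HOX, developmental factor, ligand and Polycomb enzyme lists more than 8 are named, chosen after their values were seen. Promoter sequences were not analysed here. Some genes that the naming rule selects are not reported here.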

Additional observations from a re-analysis of the deposited data

How the results depend on the processing

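The H3K27me3 depth, 47 and 46 reads at the median promoter, limits what can be said of its weak promoters. With unique gene symbols only, 718 genes were listed for H3K4me3 alone and 1486 were Polycomb only. At 100 or more in both fetuses, 839 genes were three-mark and 227 had H3K27ac with H3K27me3. With a class that also requires 50 in both fetuses, median H3K4me3 was 174 in the class listed for it alone, and median H3K27me3 was 181 in three-mark, 126 in H3K27ac with H3K27me3, 341 in bivalent and 143 in Polycomb-only promoters. Over genes listed in all 3 tables the rank correlation was 0.50 between H3K27ac and H3K4me3 and -0.17 between H3K27ac and H3K27me3. Over those genes 1156 were called between H3K4me3 and H3K27me3 (451 and 705), and 811 between H3K27ac and H3K4me3 (469 and 342), with fewer genes tested. Between H3K27ac and H3K4me3, 3098 genes stood higher in H3K4me3 after centring on the mean and 1061 without the trend. Leaving out 1 library at a time gave 1320 to 2486 calls between H3K4me3 and H3K27me3, with 662 to 1147 higher in H3K4me3 and 658 to 1430 in H3K27me3. For H3K27ac against H3K4me3 it gave 1173 to 6827 calls, with 1026 to 3251 higher in H3K27ac and 147 to 3650 in H3K4me3, and the lone library was assumed to vary like the others. With the fetus as a replicate block the calls numbered 1449, 2175 and 5178 in place of 1427 (H3K27ac against H3K27me3), 2094 (H3K4me3 against H3K27me3) and 4059 (H3K27ac against H3K4me3), all within 1.5 times. Of the alternative values for counts, levels and correlations 147 stayed within the spread or the 1.5-fold limit and 32 did not. The 147 include levels and correlations with 1 fetus left out. These could not fall outside, because the spread was that of the same 2 fetuses around their mean. For the 91 pairs of a named gene and a comparison, 918 of 932 alternative values kept direction and call. These pairs were picked by the size of their difference or with results known, so this share does not describe all calls. With every library in use, the lowest share of all calls kept was 91.8% for H3K27ac against H3K27me3 (percentile ranks). It was 75.5% for H3K27ac against H3K4me3 (percentile ranks) and 61% for H3K4me3 against H3K27me3 (genes of all 3 tables). UCP1 had the opposite sign under 2 settings: 2.99 percentile points higher in H3K27ac than in H3K27me3 with percentile ranks, and -0.69 for H3K4me3 against H3K27me3 over genes of all 3 tables. The LHX8 call between H3K27ac and H3K27me3 was lost with percentile ranks (limma adjusted p = 0.0615), and the LEP call between H3K4me3 and H3K27me3 without the H3K27me3 library of fetus 1 or fetus 2 (0.0834 and 0.0638). Promoter sequence by class was not run. The cause of these changes was not tested.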

Other observations

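Whole gene families, taken by symbol after the values were seen, had unequal shares of the classes, and none of these shares was tested. All 12 listed RNA polymerase II subunit genes (POLR2) were active, as were 54 of 61 mitochondrial ribosomal protein genes (88.5%) and 27 of 32 DEAD-box helicase genes (84.4%), against 44.4% of all listed genes. Zinc finger genes named ZNF were active at 128 of 205 members (62.4%), and 33 of them (16.1%) were listed for H3K4me3 alone, against 6.51% of all listed genes. Protocadherins, adhesion proteins of the nervous system, were bivalent at 14 of 22 members (63.6%), forkhead factors at 14 of 33 (42.4%), claudins of tight junctions at 6 of 15 (40%) and potassium channels at 22 of 71 (31%), against 8.73% of all listed genes. Collagens were three-mark at 11 of 34 members (32.4%), against 10.3%.

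Most keratins and beta-defensins were listed for H3K27me3 alone. Keratins were Polycomb only at 24 of 34 members (70.6%) and beta-defensins at 10 of 11 (90.9%), against 13.1% of all listed genes. Members of these families often lie side by side, so their promoters are not independent. Interleukin and interleukin receptor genes were spread over all classes, with 14 of 52 Polycomb only (26.9%, against 13.1%), 12 acetylated only (23.1%, against 14.8%) and 10 active (19.2%, against 44.4%). Of 21 chemokine genes 5 were Polycomb only (23.8%) and 6 three-mark (28.6%). Among genes listed in at least 2 tables, PIDD and SNORA52 were the 1 pair with identical values in every table, and they cannot be told apart.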
